A study of Drosophila melanogaster with 6 samples.

Results

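Broad peaks are stretches of 1000 bp or more that the authors called as enriched for a Dam fusion over Dam alone in the Drosophila larval brain. They were chosen by length alone, on the chromosome arms 2L, 2R, 3L, 3R, 4 and X, and number 2950 of the 92031 peaks on these arms and of 95996 peaks in all. The experiment was DamID with the microproteins Simba2 and Simba1, and its groups were UAS-Dam-Simba2, UAS-Dam-Simba1 and UAS-Dam alone, each driven by grh-Gal4 with tub-Gal80ts. All groups went through the same regime: embryos of a 4 h collection were held for 44 h at 18 °C, then for 24 h at 29 °C before dissection. Each group had 1 library in each of 2 batches, and each fusion library was called against the Dam library of its own batch. The labels name neural stem cells (NSCs) as the cell type and brain as the tissue. The driver, not a sort, sets which cells make the fusion, and peak lists hold no marker expression against which the cell type could be checked.

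Dam is a bacterial methylase that marks adenine in GATC sequences. A protein fused to it leaves such marks where it touches or comes near chromatin, and the marked DNA is cut with DpnI, amplified and sequenced. Dam alone marks open chromatin, which is why it serves as the background. A peak caller joins neighbouring enriched positions, so a long peak can be a wide domain of contact, several sites close together, or a tract in which the control has almost no reads.

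Depth was low and similar among the fusion libraries, from 1069703 to 1506081 tags after filtering, against 868080 tags in the batch 1 control and 1321104 in the batch 2 control. The controls are shared within a batch, so Simba2 and Simba1 lists of 1 batch are not independent of each other. According to the file headers, calls for broad regions were switched off, positions were joined across gaps of up to the tag size (133 bp for Simba2 batch 1, 130 bp for Simba2 batch 2, 150 bp for Simba1 batch 1 and 149 bp for Simba1 batch 2), and no peak was removed by q. Between 41.3 and 59.6% of shorter peaks per library had q of 0.05 or lower. With 2 libraries per fusion, exact two-sided permutation between fusions cannot give p below 0.333, so no difference between Simba2 and Simba1 below could pass 0.05. Nothing states whether batches came from separate crosses, so the spread between libraries may be technical.

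Broad peaks were a small tail of every list, and the tail was longest in the Simba2 libraries. The Simba2 libraries held 565 broad peaks in batch 1 (2.6% of its peaks on the arms) and 1461 in batch 2 (4.37%). The Simba1 libraries held 522 in batch 1 (3.1%) and 402 in batch 2 (2.01%). Simba2 batch 2 alone supplied most of the excess: the other 3 libraries lay between 402 and 565. Simba2 averaged 1013 ± 634 and Simba1 462 ± 84.9 broad peaks (SD, n = 2 each), a ratio of 2.19 (exact two-sided permutation p = 0.333). The ratio was 1.08 within batch 1 and 3.63 within batch 2, and 1.22 without Simba2 batch 2. The share of peaks that were broad differed by 0.928 percentage points between the fusions (exact permutation p = 0.667). It was -0.5 points within batch 1 and 2.36 within batch 2, so the batches went opposite ways. Without Simba2 batch 2 this difference was 0.0454 points, without Simba2 batch 1 it was 1.81, without Simba1 batch 1 it was 1.47 and without Simba1 batch 2 it was 0.383.

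The bases in broad peaks followed the counts. They came to 771758 bp in Simba2 batch 1 and 1853892 bp in Simba2 batch 2, against 624511 bp in Simba1 batch 1 and 487716 bp in Simba1 batch 2. That is 0.576 and 1.38% of the arms for Simba2 and 0.467 and 0.364% for Simba1. As a share of all peak bases it is 7.31 and 11.2% for Simba2 and 7.57 and 5.53% for Simba1. The ratio of the means was 2.36 (exact permutation p = 0.333), with 1.24 within batch 1, 3.8 within batch 2 and 1.39 without Simba2 batch 2.

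Most broad peaks only just met the length rule. Their median length was 1123 and 1160 bp in Simba2 batches 1 and 2, and 1131 and 1152 bp in Simba1 batches 1 and 2. Between 83.7 and 91.4% of them per library were shorter than 1500 bp. The far end of the distribution separated the libraries: peaks of 2000 bp or more numbered 35 and 42 in the Simba2 libraries and 4 and 9 in the Simba1 libraries. Peaks of 3000 bp or more numbered 9 and 7 in Simba2, and none was called in Simba1. The longest peak measured 31390 bp in Simba2 batch 1, 12589 bp in Simba2 batch 2, 2334 bp in Simba1 batch 1 and 2384 bp in Simba1 batch 2.

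**Figure D1:**
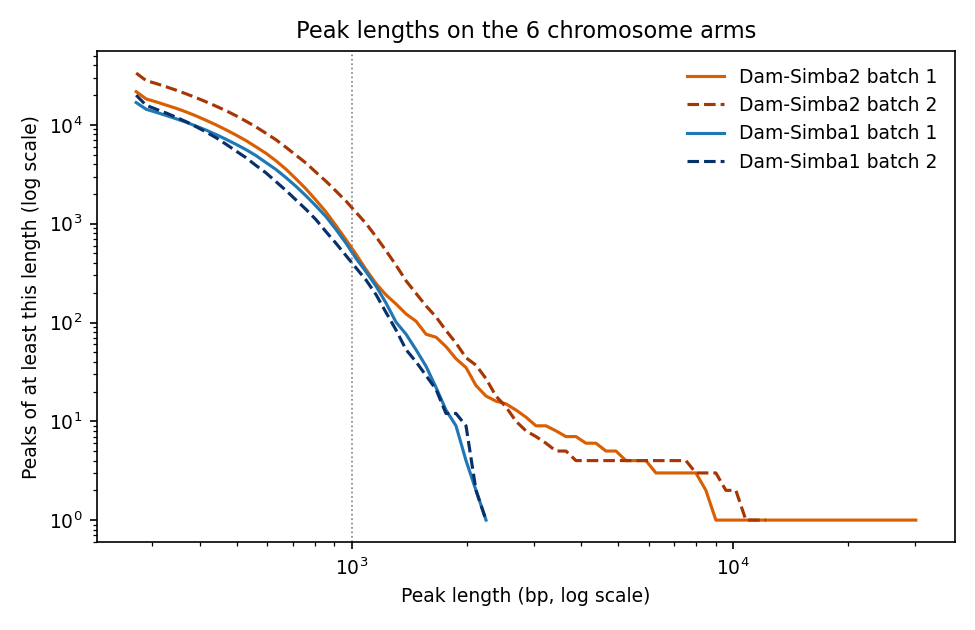
Number of peaks on the 6 arms (log scale) at or above each length in bp (log scale), for both batches of Dam-Simba2 and of Dam-Simba1; the dotted line marks 1000 bp. All 4 curves fall steeply past this line, and only the Simba2 curves run on past 3000 bp, with 9 and 7 peaks.

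Just outside the rule, in the 50 bp below 1000 bp, lay 184 and 327 peaks of Simba2 batches 1 and 2 and 164 and 118 of Simba1 batches 1 and 2. Just inside it, in the first 50 bp from 1000 bp on, lay 133 and 282 of Simba2 and 124 and 75 of Simba1. The authors' fold enrichment, which is summit coverage plus 1 over local background plus 1, had similar medians on both sides. Inside they were 4.04 and 3.22 in the Simba2 libraries and 3.96 and 3.55 in the Simba1 libraries. Outside they were 3.76 and 3.1 in the Simba2 libraries and 3.99 and 3.33 in the Simba1 libraries. No step in strength was seen at the length chosen.

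Because length, coverage, fold and q come from the same call, the following strengths are a description of the members selected on length. Median coverage at the summit was 13 reads in each Simba2 library, 16 in Simba1 batch 1 and 12 in Simba1 batch 2. Shorter peaks had medians of 10, 10, 12 and 10 reads in the same order. Median fold in broad peaks was 3.92 and 3.37 in Simba2 batches 1 and 2, and 4.22 and 3.62 in Simba1 batches 1 and 2. Shorter peaks had 2.77 and 2.41 in Simba2, and 2.93 and 2.67 in Simba1. A q of 0.05 or lower was met by 81.1 and 87.6% of the broad peaks in Simba2 and by 91 and 77.4% in Simba1.

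The longest calls of Simba2 rested on almost no reads. Among broad peaks, 27 in Simba2 batch 1 and 15 in Simba2 batch 2 had a summit of 1 or 2 reads, and Simba1 had none, its lowest summits being 3 and 4 reads. Their median length was 2105 and 2738 bp in the Simba2 libraries, against 1113 and 1158 bp for the other broad peaks of these libraries. They made up 6 of the 10 longest peaks of Simba2 batch 1 and 8 of the 10 longest of Simba2 batch 2. Shorter peaks of 1 or 2 reads also occurred, as 0.671 and 2.48% of shorter peaks in Simba2 and 0.515 and 0.0867% in Simba1.

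In some of these calls the local background also sat close to the caller's genome-wide background, which acts as a floor. This floor was 0.0832 reads in Simba2 batch 1 and 0.122 in Simba2 batch 2, and 0.0826 in Simba1 batch 1 and 0.123 in Simba1 batch 2. It follows from the effective genome size in the headers, which is 21.7 times the length of the arms. Of the low-read peaks, 14 of 27 in Simba2 batch 1 and 5 of 15 in Simba2 batch 2 had a background at most 10% above that floor. Backgrounds slightly under it occur because they were recovered from rounded deposited values. The part of the floor in these lengths was not tested. Of all 42 low-read broad peaks, 24 overlapped a peak of any length in another library. These were 19 of 27 in Simba2 batch 1 but 5 of 15 in Simba2 batch 2. Among all broad peaks of Simba2 batches 1 and 2, 6.19 and 20.9% overlapped none. In the other Simba2 batch, 11 of 27 and 3 of 15 low-read peaks had such an overlap. The shares there were 67.6 and 52.8% of all broad peaks and 51.9 and 33.7% of all peaks. Wide intervals meet more peaks by their width alone.

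**Figure D2:**
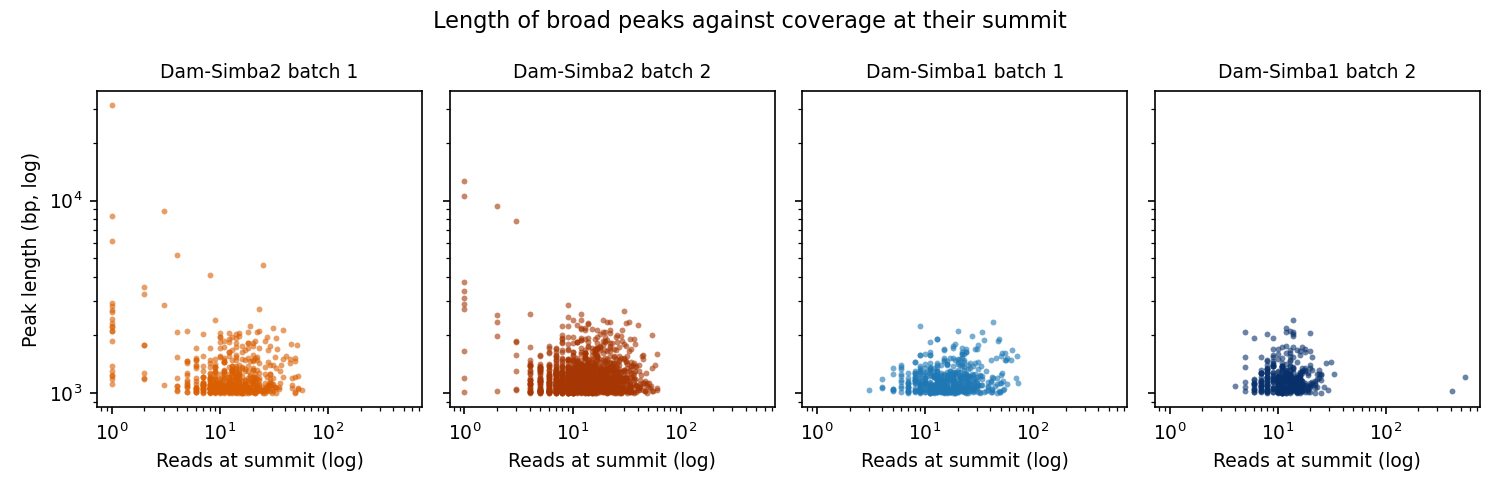
Length of each broad peak in bp (log scale) against reads at its summit (log scale), 1 panel per library, Dam-Simba2 on the left and Dam-Simba1 on the right. In the Simba2 panels the longest peaks stand at 1 to 3 reads, while both Simba1 panels stop at 2334 and 2384 bp and hold no peak below 3 reads; Simba1 batch 2 has 2 peaks at 408 and 543 reads.

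The longest call of all was a gene-free tract near the tip of the X in Simba2 batch 1 (dm6, X, 207278 to 238667, 31390 bp), 5287 bp from CG3038. Its summit held 1 read, with a fold of 1.67 and a -log10 p of 1.10. That p equals the value a position with no read would get against the same background of 0.0822. None of the other 3 libraries had a peak anywhere in this tract.

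A second tract near a chromosome tip, 1848 bp from mthl8 on 3L, was long in both Simba2 batches. Simba2 batch 1 had an 8785 bp peak (28156 to 36940, 3 reads, 3.17-fold) and Simba2 batch 2 a 9398 bp peak (28332 to 37729, 2 reads, 1.95-fold). They shared 8609 bp. Simba1 batch 1 had no peak there, and Simba1 batch 2 had a 409 bp peak of 6 reads at the edge (3.45-fold). The tract was thus long in both Simba2 libraries and neither Simba1 library, on summits of 2 and 3 reads.

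Further long calls of Simba2 batch 1 lay in genes. An 8358 bp call of 1 read lay in Pzl on 3R (3229748 to 3238105), a gene named for its likeness to the mechanosensitive channel Piezo. A 6155 bp call of 1 read lay in rdgA on the X (9009990 to 9016144), which encodes a diacylglycerol kinase of photoreceptors. A 5218 bp call of 4 reads lay at rg on the X (5251936 to 5257153), the gene of an anchoring protein for protein kinase A. CG15465 has the same span as rg in the gene table, so the 2 cannot be told apart. At the same positions the other libraries had peaks of at most 913 bp in Pzl, 677 bp in rdgA and 384 bp in rg.

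Ggamma30A stood apart from the low-read calls. It encodes a gamma subunit of heterotrimeric G proteins and lies on 2L. Simba2 batch 1 had a 4635 bp peak in it (9268949 to 9273583) with 25 reads, a fold of 19.6 and a -log10 q of 36.6, the highest fold among that library's broad peaks. Simba1 batch 1 had a 1603 bp peak (9271463 to 9273065) with 22 reads and a fold of 15.7, also its highest. In batch 2 the peaks were short and weak: 492 bp with 15 reads and 4.69-fold in Simba2, and 455 bp with 17 reads and 4.61-fold in Simba1. The batch 1 libraries share a control, whose local background at this summit was 0.0838 in the Simba2 call and 0.0832 in the Simba1 call, close to the floor. Reads at the summit ranged from 15 to 25 over the 4 libraries, so the contrast in fold between batches is larger than the contrast in reads.

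The longest calls of Simba2 batch 2 lay at the centromere end of 3R. They measured 12589 bp (144642 to 157230) and 10606 bp (126701 to 137306), each with 1 read and 1.78-fold, and lay 409846 and 429770 bp from the nearest gene, Myo81F. A 7799 bp call of 3 reads lay toward the centromere of 3L (24622640 to 24630438, 3.53-fold). Simba2 batch 1 and Simba1 batch 1 had no peak in any of these 3 tracts. Simba1 batch 2 had a 297 bp peak in the 10606 bp tract and a 283 bp peak in the 3L tract. Of the 10 longest peaks of this library, 9 overlapped no gene and 7 lay within 2 Mb of the centromere end of their arm.

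The longest Simba1 peaks were shorter and rested on more reads. In batch 1 the longest was 2334 bp in Stat92E on 3R (20549909 to 20552242, 43 reads, 4.04-fold), the transcription factor of JAK/STAT signalling. It overlapped 2 peaks of Simba2 batch 1, the longer of 1077 bp, and no peak in either batch 2 library. A 2228 bp peak (6.48-fold) lay in shakB on the X, an innexin of gap junctions, and a 2081 bp peak (3.14-fold) at tty and fliI on the X. In Simba1 batch 2 the longest was 2384 bp in Pzl (3055542 to 3057925, 14 reads, 6.36-fold), at another site than the Simba2 call in this gene. DIP-kappa, an immunoglobulin cell-surface protein that binds Dpr partners, had a 2085 bp peak in Simba1 batch 2 (3.63-fold) and a 1757 bp peak in Simba1 batch 1 (3.53-fold), at separate sites of the gene. Neither Simba2 library had a broad peak in DIP-kappa.

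Simba1 batch 2 also held the highest folds, at sites seen in no other library. A 1022 bp peak in Myo81F (3R, 1905909 to 1906930) had 408 reads and a fold of 179. A 1213 bp peak in CG17698 (3L, 23736822 to 23738034) had 543 reads and a fold of 136. With at most 1 tag kept per position and strand, coverage in this library cannot exceed 544 reads, which is 2 times its fragment length in bp, so the CG17698 peak stood 1 read under that limit. The next highest fold in this library was 11.1. Both genes lie in pericentromeric heterochromatin, and these 2 values rest on 1 library.

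Where a broad peak lay, the other libraries often had some peak too. In Simba2 batch 1, 382 of 565 broad peaks (67.6%) overlapped a Simba2 batch 2 peak by at least 1 bp, against 51.9% of all its peaks. In Simba2 batch 2, 771 of 1461 (52.8%) overlapped a Simba2 batch 1 peak, against 33.7% of all its peaks. In Simba1 batch 1, 168 of 522 (32.2%) overlapped a Simba1 batch 2 peak, against 26.9%. In Simba1 batch 2, 122 of 402 (30.3%) overlapped a Simba1 batch 1 peak, against 22.7%. The members lay above the background of their list in all 4 cases, but a wide interval meets more peaks by its width alone.

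Overlap across fusions within a batch, where the Dam control is shared, was highest in batch 1. There, 473 Simba2 broad peaks (83.7%) overlapped a Simba1 peak, against 50.9% of all Simba2 peaks, and 445 Simba1 broad peaks (85.2%) overlapped a Simba2 peak, against 65.6%. In batch 2, 710 Simba2 broad peaks (48.6%) overlapped a Simba1 peak, against 26.2%, and 213 Simba1 broad peaks (53%) overlapped a Simba2 peak, against 44%. Across both fusion and batch, where no control is shared, the shares were lower for the pair of Simba2 batch 1 and Simba1 batch 2. There, 222 Simba2 broad peaks (39.3%, against 25.8%) and 131 Simba1 broad peaks (32.6%, against 28%) had a partner. For Simba2 batch 2 and Simba1 batch 1 the counts were 743 (50.9%, against 27.7%) and 361 (69.2%, against 54.5%).

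The summit is a single position and does not gain from width. In the other batch of the same fusion, the summits of 52% of Simba2 batch 1, 39.6% of Simba2 batch 2, 20.7% of Simba1 batch 1 and 22.1% of Simba1 batch 2 broad peaks lay inside a peak. The Simba2 libraries averaged 45.8 ± 8.82% and the Simba1 libraries 21.4 ± 1.03% (SD, n = 2 each). The difference was 24.4 percentage points (exact permutation p = 0.333, the smallest possible), 31.3 within batch 1 and 17.4 within batch 2. The lists that were looked into differ in size: the Simba2 lists cover 12.4% (batch 2) and 7.88% (batch 1) of the arms, and the Simba1 lists 6.58% (batch 2) and 6.16% (batch 1). Divided by that cover, the summit shares were 4.2 and 5.02 for Simba2 and 3.14 and 3.59 for Simba1. Simba1 batch 1 summits lay more often in a Simba2 batch 2 peak (53.6%) than in a Simba1 batch 2 peak (20.7%), which by cover is 4.33 and 3.14.

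Whether broad peaks recur more often than shorter ones depended on the comparison peaks. Broad minus shorter, the summit shares in the same fusion's other batch differed by 4.5 and 9.67 percentage points in Simba2 batches 1 and 2 and by -2.54 and 2.59 in Simba1 batches 1 and 2. The mean was 3.56 (exact sign-flip permutation p = 0.25, where the smallest possible over 4 libraries is 0.125). Leaving 1 library's own difference out of the mean gave 1.52 for Simba2 batch 2 and 5.59 for Simba1 batch 1. The peaks of the library left out still served as the list looked into. These means therefore cannot show whether the result depends on that library. Against peaks of 700 to under 1000 bp alone, a comparison added after the data were seen, the mean was -2.43 points (exact p = 0.125). The sign of the difference changed with the peaks compared.

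**Figure D3:**
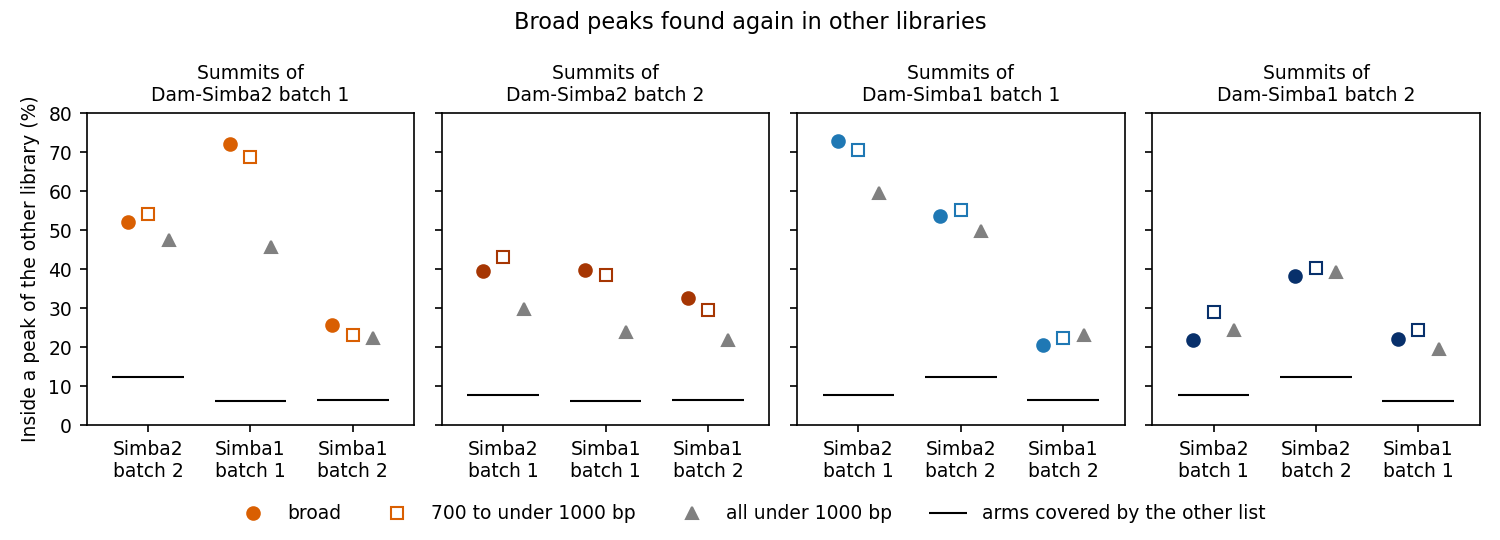
Percent of summits that lie inside a peak of each other library, for broad peaks (filled circles), peaks of 700 to under 1000 bp (open squares) and all peaks under 1000 bp (grey triangles); 1 panel per library, Dam-Simba2 on the left and Dam-Simba1 on the right. Black lines give the percent of the arms that the other list covers. Circles lie above the lines in every panel and are highest, at 72 and 72.8%, between the 2 fusions of batch 1.

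Being broad was itself rarely repeated. The 2950 broad peaks merged into 2562 regions, of which 2230 (87%) were broad in 1 library, 282 in 2, 46 in 3 and 4 in all 4 libraries. Simba2 had 98 regions that were broad in both batches and Simba1 had 15. These are 17.3% of the Simba2 batch 1 and 6.78% of the Simba2 batch 2 broad peaks, and 2.87% of the Simba1 batch 1 and 3.73% of the Simba1 batch 2 broad peaks. Broad in both fusions were 143 regions in batch 1 and 66 in batch 2, where each pair shares its control. Some broad peaks overlapped no peak of any length in another library: 35 of Simba2 batch 1 (6.19%) and 305 of Simba2 batch 2 (20.9%). In Simba1 these were 31 in batch 1 (5.94%) and 143 in batch 2 (35.6%). Shorter peaks without a partner made up 24.4 and 47.7% in Simba2 and 17.3 and 43.8% in Simba1. Partners in all 3 other libraries were found for 154 and 318 broad peaks of Simba2 (27.3 and 21.8%). For Simba1 they were found for 121 and 71 (23.2 and 17.7%). Shorter peaks had 10.6 and 6.54% in Simba2 and 14 and 11.8% in Simba1. A wide interval meets more peaks by its width alone.

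The region with the largest summed length of the 4 lies between genes on 2L (15859752 to 15861785), 1415 bp from lncRNA:CR42791. Its peaks measured 1558 bp (7 reads, 4.45-fold) and 1651 bp (15 reads, 8.04-fold) in Simba2 batches 1 and 2, and 1139 bp (6 reads, 3.28-fold) and 1984 bp (14 reads, 6.8-fold) in Simba1 batches 1 and 2. The -log10 q was 2.67 and 10.3 in Simba2 and 1.47 and 6.52 in Simba1. All 4 peaks shared 1139 bp, and the batch 2 libraries had the higher folds for either fusion.

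The X region lies inside mei-P26 (9167865 to 9169555), which encodes a TRIM-NHL protein that restrains growth in stem cell lineages. Its peaks measured 1143 bp (3.72-fold) and 1691 bp (6.45-fold) in Simba2 batches 1 and 2, and 1003 bp (2.05-fold) and 1150 bp (4.72-fold) in Simba1 batches 1 and 2. Reads at the summit were 20 and 24 in Simba2 and 24 and 15 in Simba1. The -log10 q was 4.01 and 11.3 in Simba2 and 1.12 and 4.24 in Simba1, so the Simba1 batch 1 peak had q above 0.05. Both Simba2 libraries had a second broad peak in this gene, next to the first (1093 bp, 3.96-fold, and 1188 bp, 4.31-fold). At the same place Simba1 had shorter peaks, of 740 bp (3.25-fold) in batch 1 and 599 bp (1.9-fold) in batch 2.

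On chromosome 4 a region reached the edge of asRNA:CR44027 (395883 to 397191). Its 4 peaks were nearly the same in extent: 1251 and 1196 bp in Simba2, 1228 and 1261 bp in Simba1, with 1183 bp in common. The folds were 4.09 and 3.02 in Simba2 batches 1 and 2, and 4.13 and 3.19 in Simba1 batches 1 and 2. The overlap with the antisense RNA was 6 to 72 bp, so most of this region lies outside any gene.

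The 3R region lies in CG1544 (31202106 to 31203681). Its peaks measured 1059 and 1509 bp in Simba2 (4.02-fold and 7.15-fold) and 1012 and 1165 bp in Simba1 (2.8-fold and 3.79-fold), with 513 bp in common. The -log10 q was 2.78 and 8.77 in Simba2 and 1.66 and 2.2 in Simba1.

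**Figure D4:**
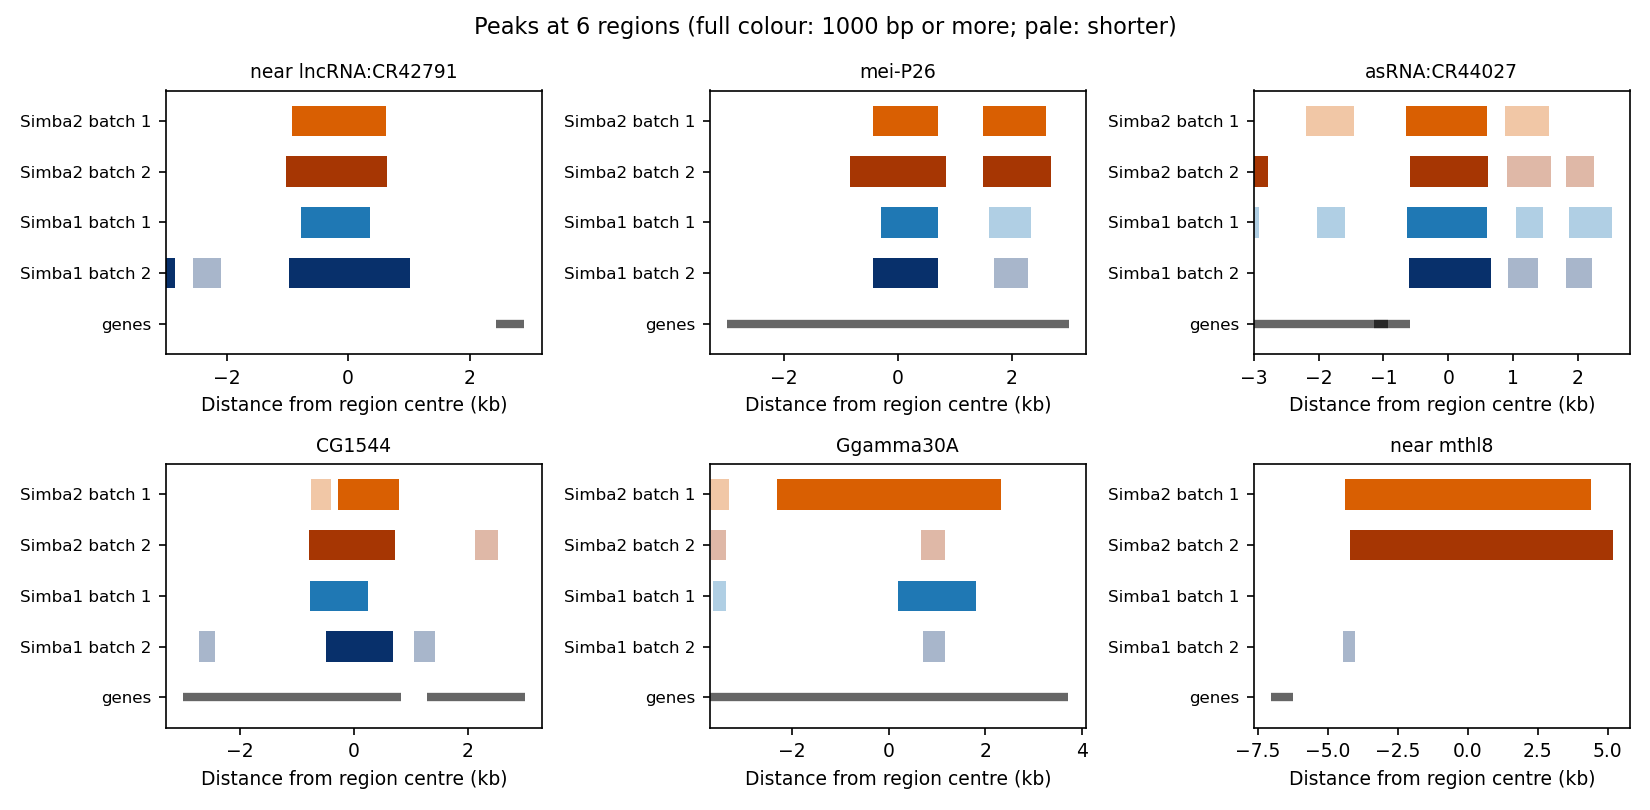
Peaks of the 4 libraries around 6 regions, as distance in kb from the region centre: the 4 regions that are broad in every library, then Ggamma30A and the tract near mthl8. Full colour marks peaks of 1000 bp or more, pale colour shorter peaks and grey bars gene spans, all cut at the panel edge. The first 4 panels show a peak in every row at the centre; in the tract near mthl8 only the Simba2 rows are long, at 8785 and 9398 bp.

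Of the 50 regions that were broad in at least 3 libraries, 42 overlapped a gene and 26 had a peak of some length in all 4 libraries. The genes described next were chosen as examples after their values were seen. CCAP-R, a neuropeptide receptor, had peaks of 2218 bp (8.21-fold) and 1012 bp (3.76-fold) in Simba2 batches 1 and 2 and of 1786 bp (11.8-fold) in Simba1 batch 1. In Simba1 batch 2 it had a 343 bp peak (2.93-fold). nAChRalpha6, a subunit of nicotinic acetylcholine receptors, had 1152 bp (7.53-fold) and 1265 bp (10.3-fold) in Simba2 and 1014 bp (6.16-fold) in Simba1 batch 1, with 633 bp (4.41-fold) in Simba1 batch 2. The adhesion gene Fas3 had 1294 and 1309 bp in Simba2 (4.32-fold and 3.57-fold) and 1156 bp in Simba1 batch 1 (4.99-fold). In unc-13, which primes synaptic vesicles and lies on chromosome 4, peaks measured 1668 and 1085 bp in Simba2 and 1323 bp in Simba1 batch 1.

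Also among these 50, the peak in pho, the DNA-binding Polycomb-group protein on chromosome 4, measured 1100 bp (7.34-fold) and 1168 bp (3.44-fold) in Simba2 batches 1 and 2 and 1163 bp (6.54-fold) in Simba1 batch 1. kis, a chromodomain helicase, had 1251 and 1724 bp in Simba2 (3.16-fold and 2.91-fold) and 1146 bp in Simba1 batch 1 (2.74-fold). Snoo, the fly Ski/Sno protein, had 1128 and 1037 bp in Simba2 (7.43-fold and 3.73-fold) and 1018 bp in Simba1 batch 1 (6.55-fold). The region in pros, a homeodomain factor handed to the daughters of dividing NSCs, was broad in Simba2 batch 2 (1232 bp, 3.1-fold) and in both Simba1 batches (1287 bp, 6.17-fold, and 1076 bp, 4.77-fold). In Simba2 batch 1 pros had no broad peak.

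Genes were counted when a broad peak overlapped their span by 1 bp. Of 17684 genes on the arms, 451 (2.55%) were hit in Simba2 batch 1 and 1174 (6.64%) in Simba2 batch 2, against 471 (2.66%) in Simba1 batch 1 and 273 (1.54%) in Simba1 batch 2. Both batches hit 159 genes for Simba2 (0.899%) and 49 for Simba1 (0.277%). A further narrowing to all 4 libraries left 14 genes (0.0792%): nAChRalpha6, sick, mbl, bru3, Myo81F, Pzl, CG14669, side-III, side, CG1544, asRNA:CR44027, mei-P26, mgl and CG43759. Leaving out 1 library gave 29 genes without Simba2 batch 1, 33 without Simba1 batch 1 and 78 without Simba1 batch 2. In any library, 1778 genes (10.1%) were hit.

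The share of genes with a broad peak was higher at longer spans, although most of the genes hit were not long: 727 of the 1778 spanned under 5 kb and 466 spanned 5 to 20 kb. The median span was 1.57 kb for genes without one, 5.76 kb for genes hit in 1 library, 19.7 kb in 2, 45.6 kb in 3 and 97.5 kb in all 4. Among genes under 5 kb, 5.16% had a broad peak in any library, against 94.4% of the 89 genes over 100 kb. A long gene is a larger target, and its broad peaks need not be at 1 site. Myo81F, with a span of 1965.9 kb, had 4 and 11 broad peaks in Simba2 batches 1 and 2 and 4 in each Simba1 batch. Pzl, with 709 kb, had 2 and 11 in Simba2 and 2 and 4 in Simba1.

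A gene hit in every library was not always hit at 1 place. In side, the receptor-type protein that guides motor axons, the longest peak was 1010 and 1715 bp in Simba2 batches 1 and 2 and 1205 and 1023 bp in Simba1 batches 1 and 2. Both Simba2 libraries and Simba1 batch 2 had a broad peak in 1 region of it (3R, 27397231 to 27399156), and that of Simba1 batch 1 lay elsewhere in the gene (27390662 to 27391866). The RNA-binding proteins mbl and bru3, both regulators of splicing, had broad peaks in every library. For mbl the longest were 1157 and 1819 bp in Simba2 and 1376 and 1533 bp in Simba1. For bru3 they were 1908 and 1117 bp in Simba2 and 1241 and 2036 bp in Simba1. The broad peaks of mbl with the lowest q in each library lay at 4 separate sites of its 163 kb span. Those of bru3 did not overlap either in its 281 kb span, but the batch 1 peaks, which share a control, were neighbours. They lay at 13639426 to 13641333 in Simba2 and 13637916 to 13638934 in Simba1. Another mbl peak did share a site. The 1157 bp peak of Simba2 batch 1, which did not have the lowest q there, lay inside the 1376 bp peak of Simba1 batch 1.

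By pathway, the counts below are read against 10.1% of all genes with a broad peak in any library. They are also read against the share for genes of like span. This share was 5.16% under 5 kb, 18.2% at 5 to 20 kb and 47.1% at 20 to 50 kb. It was 70.4% at 50 to 100 kb and 94.4% over 100 kb. Spans are given as the median of a whole list, and the genes hit can be longer, so this reading is rough. Except where stated, the median gene of a list was hit in 0 libraries, as over all genes. Among Wg/Wnt genes, 10 of 33 (30.3%) had a broad peak in any library, with a median span of 9.27 kb. Per library these were 3 and 9 genes in Simba2 batches 1 and 2 and 3 and 0 in Simba1 batches 1 and 2. They were the receptors fz, fz2 and arr, the destruction complex members Apc and sgg and the kinase gish. The others were the nuclear factors pan and gro, the glypican dlp and the feedback inhibitor nkd. All but Apc and gro spanned from 29590 bp (arr) to 94399 bp (fz2), in longer span classes than the list's median.

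The Wg receptor gene fz had its strongest broad peaks, of 1017 bp (7.96-fold) in Simba2 batch 1, 1115 bp (2.8-fold) in Simba2 batch 2 and 1111 bp (2.22-fold) in Simba1 batch 1, at 3 separate sites. Apc, a scaffold of the complex that degrades the beta-catenin Armadillo, had 1 site in the same 3 libraries. It measured 1001 bp (3.12-fold) and 1112 bp (3.34-fold) in Simba2 batches 1 and 2 and 1224 bp (4.86-fold) in Simba1 batch 1 (3R, 28843557 to 28844780). Simba1 batch 2 had 2 peaks in Apc, both under 1000 bp. fz2 had 1046 bp in Simba2 batch 2 (2.48-fold) and 1005 bp in Simba1 batch 1 (4.51-fold), at separate sites.

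Among insulin and TOR pathway genes, 3 of 25 (12%, median span 6.44 kb) carried a broad peak, a share near that of all genes. The ligand gene Ilp5 lay within a 1222 bp peak of Simba2 batch 2 (3.82-fold) and a 1341 bp peak of Simba1 batch 1 (4.87-fold). The receptor gene InR had a 1688 bp peak (7.28-fold) and rictor, of TOR complex 2, a 1271 bp peak (2.66-fold), both in Simba1 batch 2. Cytoplasmic ribosomal protein genes, with a median span of 1.48 kb, had none in 29. Among all genes under 5 kb the share was 5.16%, at which few hits would fall in a list of this size.

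Among genes that define NSCs, temporal factors had 6 of 14 (42.9%, median span 41.1 kb), identity and division genes 4 of 22 (18.2%, 5.52 kb) and genes of quiescence and reactivation 4 of 17 (23.5%, 7.54 kb). nub, a POU factor, had overlapping broad peaks of 1074 and 1997 bp in Simba2 batches 1 and 2 (3.84-fold and 2.6-fold) and of 1178 bp in Simba1 batch 2 (4.13-fold), elsewhere in the gene. The late temporal factor Eip93F was hit in both Simba1 batches. Its broad peaks with the lowest q there (1280 bp, 3.49-fold, and 1265 bp, 3.77-fold) lay at separate sites. Simba2 batches 1 and 2 had no broad peak in Eip93F but 3 and 5 shorter ones. The translational repressor brat had 1484 bp in Simba2 batch 2 (5.07-fold) and 1069 bp in Simba1 batch 1 (4.39-fold), at separate sites. Patronin, which binds microtubule minus ends, had 1130 bp in Simba2 batch 2 (3.83-fold). Notch pathway genes had 3 of 15 (20%, 16.2 kb): the protease kuz, the coactivator mam and the ligand Delta. Hox genes had 4 of 8 (50%, 30.6 kb, median 0.5 libraries): Ubx, Abd-B, abd-A and Scr.

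Axon guidance and adhesion genes had 21 of 27 (77.8%, median span 43.8 kb, median 1 library). Dpr and DIP genes had 16 of 31 (51.6%, 32.3 kb, median 1 library), near the share of genes of like span. The list of RNA-binding protein genes had 12 of 16 (75%, 117 kb, median 2 libraries) and ion channels 6 of 19 (31.6%, 46.5 kb). Placed by median span, these 2 lists lay below the share of their class, 94.4% over 100 kb and 47.1% at 20 to 50 kb. Both also hold shorter genes, such as elav at 14 kb and Irk2 at 5.83 kb, so no firm difference follows. The first of these lists counts rg among its 12 hits, although rg was described above as encoding an anchoring protein for protein kinase A. Per library the axon guidance genes numbered 11 and 16 in Simba2 and 8 and 7 in Simba1. The teneurin genes Ten-a and Ten-m were each hit in 3 libraries. Ten-m had 1045 bp (3.54-fold) and 1850 bp (5.58-fold) in Simba2 batches 1 and 2 and 1643 bp (2.8-fold) in Simba1 batch 2, and the batch 2 peaks of both fusions overlapped. dpr12 had 4 broad peaks in Simba2 batch 1 and 1 in each of Simba2 batch 2 and Simba1 batch 1.

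Lists for other cells of the brain gave 2 of 14 glial genes (14.3%, 6.29 kb), nrv2 and pnt, and 7 of 15 neuronal genes (46.7%, 13.4 kb). elav, the pan-neuronal RNA-binding protein, had 1057 bp in Simba2 batch 1 (3.47-fold) and 1002 bp in Simba1 batch 1 (4.43-fold) at the same place. A peak marks contact, not expression, so these lists do not tell which cells the marks came from. Among genes in pericentromeric heterochromatin, 8 of 12 (66.7%, 65.6 kb, median 1 library) were hit, with Myo81F in all 4 libraries and Dbp80 in 3. grh, whose enhancer drives Gal4, and w, carried by transgenes, had no broad peak in any library, although grh had 8 and 13 shorter peaks in Simba2 and 6 and 2 in Simba1.

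Relative to genes, summits of broad peaks lay slightly less often inside a gene span than those of shorter peaks, but this depended on the span rule. Broad summits were inside a span in 64.8 and 66.3% of cases in Simba2 batches 1 and 2 and in 64.2 and 60.4% in Simba1 batches 1 and 2. Shorter summits were in 67.5 and 69.3% in Simba2 and 66.4 and 64.1% in Simba1, and spans cover 69.5% of the arms. Broad minus shorter averaged -2.92 percentage points and was negative in 4 of 4 libraries (exact sign-flip permutation p = 0.125, the smallest possible). With spans widened by 1000 bp on each side, the mean was -1.21 (exact sign-flip permutation p = 0.5). Broad summits were then the more frequent in Simba2 batch 2 (79.3 against 78.8%) and Simba1 batch 1 (78 against 77.2%). They were the less frequent in Simba2 batch 1 (76.1 against 77.5%) and Simba1 batch 2 (67.9 against 72.6%). For broad summits in spans without flanks, Simba2 exceeded Simba1 by 3.24 points (exact permutation p = 0.333), by 0.603 within batch 1 and 5.88 within batch 2. This was 1.38 without Simba1 batch 2 and 5.1 without Simba1 batch 1.

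Near the ends of genes, within 1 kb, lay 30.4 and 34.2% of broad summits in Simba2 batches 1 and 2 and 35.2 and 14.9% in Simba1 batches 1 and 2. Shorter summits had 30.4 and 32.8% in Simba2 and 31.2 and 25.1% in Simba1, where such stretches cover 28.5% of the arms. Simba1 batch 2 was thus the lowest for both lengths, and its broad peaks lay under the cover of these stretches while those of the other 3 libraries lay above it. The gene table gives no strand, so starts and ends of genes were not told apart.

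The density of broad peaks varied between arms, most widely on chromosome 4. The 5 large arms had 0.826 to 1.26 times the mean density in Simba2 batch 1, 0.934 to 1.06 in Simba2 batch 2, and for Simba1 0.763 to 1.23 in batch 1 and 0.746 to 1.21 in batch 2. Chromosome 4, a small arm rich in heterochromatin, had 1.41 and 1.23 times the mean in Simba2 and 2.86 and 0.495 times in Simba1. All peaks had 1.47 and 1.17 times their mean density there in Simba2 and 1.62 and 0.935 times in Simba1, so the Simba2 broad peaks were near the value over all peaks. The broad values rest on 8 and 18 peaks of Simba2 and 15 and 2 peaks of Simba1, so the Simba1 batches stood farthest apart there. Within 2 Mb of the centromere end lay 4.42 and 5.82% of broad peaks in Simba2 and 4.02 and 6.47% in Simba1. Shorter peaks had 6.55 and 7.9% in Simba2 and 6.56 and 9.17% in Simba1, and these stretches make up 7.47% of the arms.

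**Figure D5:**
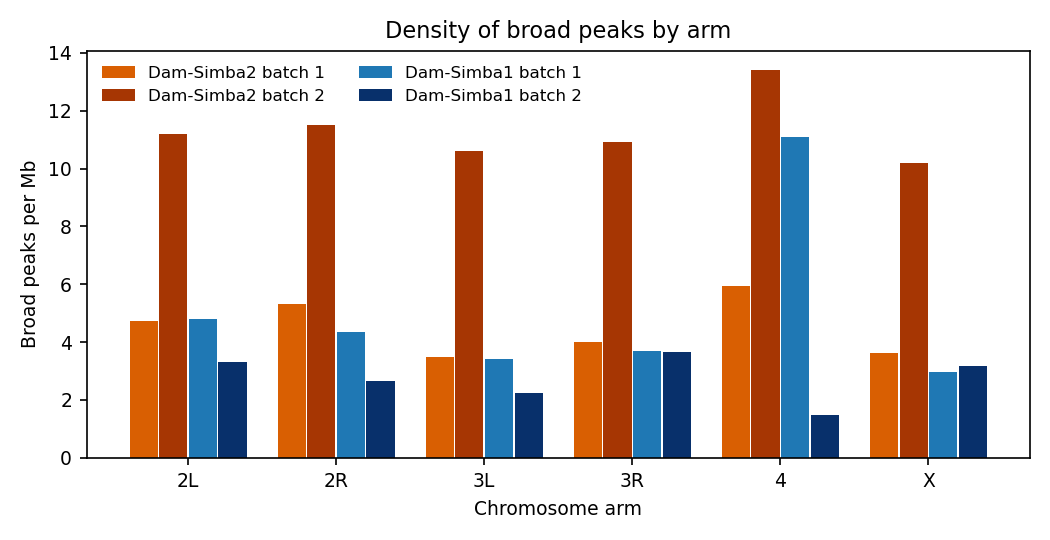
Broad peaks per Mb on each arm, with bars for Dam-Simba2 batches 1 and 2 and Dam-Simba1 batches 1 and 2, from left to right. Simba2 batch 2 is highest on every arm, and on chromosome 4 Simba1 batch 1 reaches 11.1 per Mb where Simba1 batch 2 has 1.49.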

How the data were processed

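Peaks of 2 Dam-Simba2 and 2 Dam-Simba1 libraries were used. Per the file headers, MACS 3.0.0 was run by the authors on each library against its batch's Dam control, in single-read mode with 1 tag kept per position. Per the submitters' processing notes, bcl2fastq 2.19.0.316, FastQC, Bowtie2, dm6 and ChIPseeker were used, with no alignment options stated there. The deposited pileup signal is summit coverage scaled to the smaller library; divided by the scale it gave whole reads within 0.02. Deposited p and q values, written as -log10, come from a Poisson test against local lambda. The deposited fold enrichment is a ratio of pileup plus 1 to lambda plus 1, from which lambda was recovered. The length of each peak in bp is deposited too.

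Gene spans were those of RefSeq for the same assembly, in a table that has no strand or exons. Regions' sequences were not analysed here. Of 297 symbols in 15 lists, 296 matched (Trh did not). The members, the lists and many of the tests were chosen with earlier results of these data known. Named genes were those at the 6 longest peaks per library, at regions broad in all 4 libraries, with most bases in broad peaks of both batches (up to 8 per fusion), grh and w, and up to 3 per list; other examples are stated as such.

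Libraries were compared by exact permutation. The batch number pairs the libraries through their shared Dam control, as the labels and headers give it; within-batch values therefore stand beside the means. The functions were checked on simulated data with Python 3.11.15, numpy 2.4.6, pandas 2.3.3 and scipy 1.17.1. Alternatives were lengths of 1500 and 2000 bp, q limits of 0.05 and 0.001, other overlap rules, gene flanks, each library left out and the pairing.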

Additional observations from a re-analysis of the deposited data

Results flagged for a closer look

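The share of peaks that were broad went opposite ways in the 2 batches: the difference, Simba2 less Simba1, came to -0.5 percentage points for batch 1 but 2.36 for batch 2. With 1 library per fusion in a batch, this difference between batches was not tested.

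Broad peaks also occurred off the 6 arms, on the Y and on unplaced sequences, which the comparisons leave out. There were 228 in Simba2 batch 1 and 284 in Simba2 batch 2, against 4 in Simba1 batch 1 and 13 in Simba1 batch 2. Of all peaks off the arms these were 30.3 and 16% in Simba2 and 0.959 and 1.27% in Simba1. The Y held 118 and 124 of them in Simba2 and 1 and 2 in Simba1. The longest measured 42900 and 23004 bp in Simba2 and 1709 and 1505 bp in Simba1. Reads, fold and q of these peaks off the arms were not examined, so how many rest on 1 or 2 reads is not known here.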

How the results depend on the processing

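Between the fusions, the means of count, bases and share of broad peaks and of their recurrence kept their direction under every alternative run. The share was nonetheless opposite within batch 1 (-0.5 percentage points) and differed by 0.0454 points without Simba2 batch 2. For recurrence, a library left out lost only its own share, and its peaks still served as the list looked into. Those runs cannot show whether recurrence depends on that library. With gene flanks of 1000 bp, broad minus shorter in summits inside gene spans shrank to -1.21 percentage points. With a minimum of 2000 bp the Simba2 minus Simba1 difference in summits inside gene spans was -14.2 percentage points, the opposite sign, and broad minus shorter recurrence was -4.58. Recurrence was also lower in broad peaks when 50% of the peak had to be covered (-6.27) and against peaks of 700 to under 1000 bp (-2.43); the cause was not tested. Genes hit in both Simba2 batches, both Simba1 batches and all 4 libraries numbered 4, 1 and 0 at 1500 bp, 0, 0 and 0 at 2000 bp, where fewer peaks enter by construction, and 79, 14 and 5 at q of 0.001. Leaving out 1 library gave 20 to 78 genes hit in all remaining libraries. With the replicate block, which pairs libraries by batch, the ratio of broad peaks was 1.98 and that of bases 2.17 (exact sign-flip p = 0.5, the smallest possible), and the block changed no call. Without peaks of 1 or 2 reads, a setting added after the data were seen, the ratio of counts was 2.15 and that of bases 2.22.

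Limits are few libraries, 1069703 to 1506081 tags in each, a control shared within each batch, and summits of about 13 reads, so length and fold of single peaks carry large counting error.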
